A study of Mus musculus with 6 samples.

Results

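The proteasome genes of the mouse colon are described here: the subunits of the proteasome, its activators and inhibitor, and its assembly factors, taken as the gene symbols Psma to Psmg followed by a digit. The rule gave 48 genes of the 19949 genes listed, after 6 pseudogenes were left out. Of these, 5 are the interferon-inducible subunits Psmb8, Psmb9, Psmb10, Psme1 and Psme2, and 43 were counted as constitutive. The symbols Psmc3ip and Psme3ip1 name proteins that interact with a subunit, and Psme2b is a near copy of Psme2, so these 3 genes are reported apart. The study measured RNA in colon tissue of BALB/c mice aged 6 to 8 weeks that had dextran sulfate sodium (DSS), a polymer that injures the colon epithelium, for 3 days at 3%. One group carried the STAT6-/- genotype (3 libraries) and the other was wild type (WT, 3 libraries). STAT6 is the transcription factor that acts downstream of interleukin-4 and interleukin-13. All 6 libraries came from DSS-treated mice, so the comparison is between genotypes under DSS, and no untreated group was analysed here. The labels give neither the allele nor how the mice of the groups were bred, and their protocol speaks of the proximal intestine as well as the colon. They do not say that the libraries of a group came from separate animals, so p-values measure the spread between these libraries, which may be technical.

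The proteasome is the barrel-shaped protease that degrades proteins tagged with ubiquitin. Its 20S core has outer rings of alpha subunits, which gate the entry, and inner rings of beta subunits, of which Psmb5, Psmb6 and Psmb7 carry the catalytic sites. The 19S regulator binds ubiquitin chains, removes them and unfolds the substrate with a ring of ATPases. Interferon-gamma induces Psmb8, Psmb9 and Psmb10, which take the places of Psmb5, Psmb6 and Psmb7 in newly assembled cores, and the PA28 activator made of Psme1 and Psme2. The resulting immunoproteasome favours peptides that fit MHC class I molecules.

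The libraries held 17122315 to 19555450 expected counts, the fractional read counts that RSEM assigns to transcripts. Stat6 stood at 49.9, 38.5 and 53.2 CPM (counts scaled to a common library size) in the STAT6-/- libraries and at 91.7, 104 and 88.8 CPM in WT, so it was lower (log2 fold change -1.01 ± 0.16 SE, edgeR adjusted p = 0.0134) but not absent. The sex-linked genes separated the groups: Xist read 0.26 to 0.99 CPM in STAT6-/- and 352 to 545 CPM in WT, and Ddx3y, on the Y chromosome, 50.9 to 59.5 CPM and 0.057 to 0.12 CPM. Genotype and sex therefore cannot be told apart in any value below. STAT6-/- replicate 2 lay nearest to WT on the first principal component, which held 61.4% of the variance. Of the 11 colon epithelium markers all were detected in every library, and 8 had a positive log2 fold change. Krt20 and Vil1 were higher and Car1 was lower in STAT6-/-. The 11 markers summed to 27140 to 38150 CPM in STAT6-/- and 32330 to 42650 CPM in WT. Lypd8 held the largest part of this sum, at 11930 to 18160 CPM in STAT6-/- and 19850 to 25800 CPM in WT. Smooth muscle markers were lower in 4 of 5 (sums of 1776 to 4005 CPM against 5795 to 7419 CPM), as were 3 of 4 fat markers. Over all genes tested 11.5% were lower. No marker of fibroblasts, endothelium or small intestine passed. Of these, 1 of 4 fibroblast markers, 2 of 2 endothelium markers and the 2 small intestine markers tested had a positive log2 fold change. The part of these differences in tissue makeup in the results was not tested.

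Of the 48 proteasome genes 47 passed the filter on low counts, and 8 of them (17%) were higher and 2 (4.26%) were lower in STAT6-/- by edgeR's quasi-likelihood test at an adjusted p below 0.05. Over all 15066 genes tested, 11.4% were higher and 11.5% were lower, 22.9% in all. The genes that rose were Psmb8, Psmb9 and Psme1 among the interferon-inducible subunits and Psmc4, Psmc5, Psmd2, Psmd3 and Psme3 among the constitutive ones. The genes that fell were Psmc6 and Psmg2. The median log2 fold change was 0.55 over the 5 inducible subunits, 0.041 over the 42 constitutive genes tested and 0.00987 over all genes tested. Among the constitutive genes 21 had a positive and 21 a negative log2 fold change, and 5 higher calls in 42 (11.9%) lay close to the share over all genes. In 27 of the 47 genes (57.4%) the highest library of one group lay under the lowest of the other, against 46.5% of all genes tested. These calls depended on the WT libraries. Without WT replicate 2 or WT replicate 3, 0 members passed edgeR's test (12 and 9 had an unadjusted p under 0.05 on the higher side, 2 and 6 on the lower), as did few genes of the whole table (31 or 0.2%, and 18 or 0.117%), while all 10 called genes kept their direction.

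**Figure D1:**
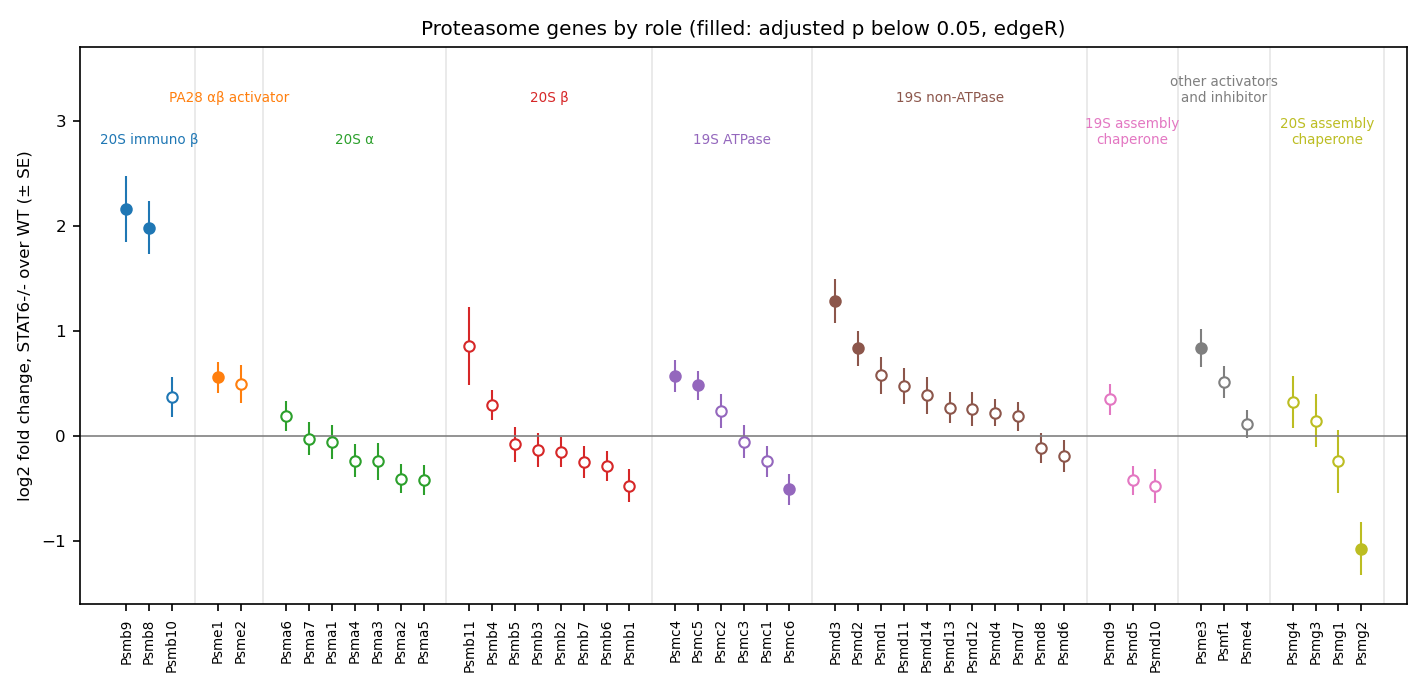
Log2 fold change of STAT6-/- over WT for the 47 tested proteasome genes, grouped by role and ordered within it; points are edgeR estimates, bars the SE, and filled points passed an adjusted p below 0.05. Psmb9 and Psmb8 stand at 2.16 and 1.98, 6 of 7 α subunits and 6 of 8 constitutive β subunits lie below 0, and Psmd3 leads the 19S genes at 1.28.

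The inducible genes lie in pairs in the genome. Psmb9 (chr17:34182030-34187330) and Psmb8 (chr17:34198195-34201454) lie within 19.4 kb in the MHC region in the mouse build GRCm38.p6, and Psme1 (chr14:55578494-55581527) and Psme2 (chr14:55587440-55591101) within 12.6 kb. Psmb10 lies alone at chr8:105935728-105938392. Psmb9 and the peptide transporter gene Tap1 are transcribed away from each other with 225 bases between their starts. RefSeq promoter windows, from 250 bases before to 50 bases after the start, were found for 40 of the 48 members and searched on both strands for 4 short motifs. The gamma-activated site TTCNNNGAA, an element of interferon-gamma response, was in 3 of 40 (Psmb8, Psmd2 and Psmg1) and in 9.55% of all 27025 genes with a window. The same arms with a spacer of 4 bases, TTCNNNNGAA, the spacing STAT6 prefers, were in Psmb10 alone among the 40 (2.5%, against 8.01% of all genes). The core of the interferon-stimulated response element, GAAANNGAAA, was in 5 of 40 (12.5%: Psmb3, Psmd4, Psmd9, Psme1 and Psmg4) and in 3.99% of all genes. The antioxidant response core TGACNNNGC, through which Nfe2l1 drives proteasome genes, was in 6 of 40 (15%, Psmb5 and Psmb6 among them) and in 14% of all genes. None of the 4 was in the windows of Psmb9 and Psme2, which says only that these letters are not there.

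The windows of 30 bases below are shown because they hold the matches of the inducible subunits, of 2 of the catalytic subunits they replace and of Psmd2, a constitutive gene that rose. They are RefSeq sequences of GRCm38.p6, written 5′ to 3′ on the gene's strand, with the match in capitals. A match is a description of the letters and not a bound site. The windows lie at chr17:34198088-34198117 (plus strand, Psmb8), chr8:105938440-105938469 (minus, Psmb10), chr14:55578493-55578522 (plus, Psme1), chr16:20651646-20651675 (plus, Psmd2), chr14:54618023-54618052 (minus, Psmb5) and chr11:70525338-70525367 (plus, Psmb6). The match of Psmb8 begins 97 bases before the start of transcription and that of Psmb10 67 bases before it, and that of Psme1 begins at base 10 of the transcript and reads as the response element on the opposite strand. The match of Psmd2 begins at base 5 after a start that lies inside the gene (chr16:20651122-20663414), and not at the gene's first base.
Psmb8, gamma-activated site: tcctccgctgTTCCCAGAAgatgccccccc
Psmb10, spacer of 4 bases: gtaacttcagTTCCAGGGAAtctgatgccc
Psme1, interferon-stimulated response element: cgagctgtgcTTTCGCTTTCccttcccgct
Psmd2, gamma-activated site: gcgcgtggccTTCTGGGAAaaggggcggtg
Psmb5, antioxidant response core: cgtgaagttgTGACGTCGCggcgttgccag
Psmb6, antioxidant response core: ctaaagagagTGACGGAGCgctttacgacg

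The 2 immunosubunits of the MHC region had the largest log2 fold changes of the 47 tested genes. Psmb8, the chymotrypsin-like immunosubunit, stood at 427, 315 and 350 CPM in STAT6-/- and at 92.9, 118 and 66.5 CPM in WT. Every STAT6-/- library lay above every WT library, and the 2 groups were far apart relative to the spread within each. Psmb8 was 3.94-fold higher (log2 fold change 1.98 ± 0.25, edgeR adjusted p = 0.00969). Psmb9, which replaces Psmb6, stood at 203, 118 and 131 CPM in STAT6-/- and at 25.5, 47.3 and 28.6 CPM in WT. Its groups did not overlap either, with STAT6-/- replicate 1 well above the other two. Psmb9 was 4.46-fold higher (2.16 ± 0.32, edgeR adjusted p = 0.0116). Both calls were lost without WT replicate 2 (edgeR adjusted p = 0.0542 for each) or WT replicate 3 (0.0675 and 0.0728), with log2 fold changes of 1.78 to 2.19 for Psmb8 and 1.92 to 2.47 for Psmb9 over the 6 fits that each left out a library. In bulk tissue, a change in the number of expressing cells and in the RNA per cell cannot be told apart.

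Psmb10, the immunosubunit that lies outside the MHC region and replaces Psmb7, stood at 271, 238 and 217 CPM in STAT6-/- and at 166, 231 and 167 CPM in WT. WT replicate 2 lay within the STAT6-/- range, and the difference did not pass (log2 fold change 0.37 ± 0.20, edgeR adjusted p = 0.199, 0.114 to 0.455 over the alternatives). In WT, Psmb10 was already at 130 to 169 FPKM, a level scaled to transcript length and library, against 56.4 to 89.8 FPKM for Psmb8 and 32.0 to 55.5 FPKM for Psmb9.

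**Figure D2:**
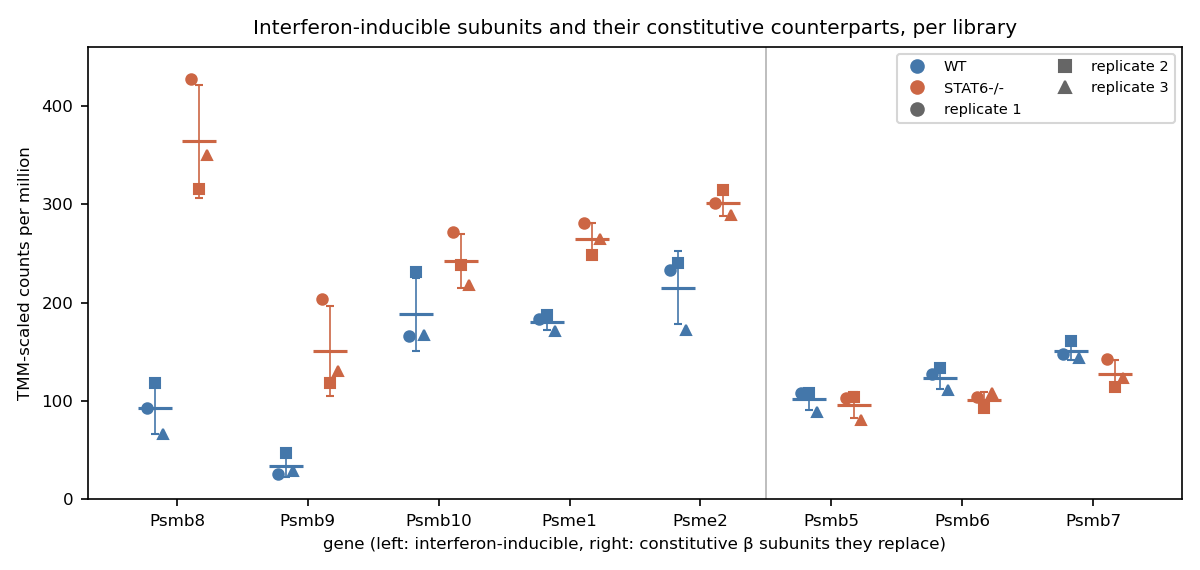
TMM-scaled CPM of the 5 interferon-inducible genes and of the 3 catalytic subunits replaced, 1 point per library (shape gives the replicate) with the group mean and SD. Psmb8 and Psmb9 of all 3 STAT6-/- libraries lie above all WT libraries, whereas Psmb5 overlaps between the groups.

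The replaced catalytic subunits did not pass the test in either direction. Psmb5, the chymotrypsin-like subunit, read 102, 104 and 80.4 CPM in STAT6-/- and 108, 108 and 88.6 CPM in WT (log2 fold change -0.08 ± 0.16, edgeR adjusted p = 0.723). Psmb6, the caspase-like subunit, read 103, 92.6 and 108 CPM against 127, 133 and 111 CPM (-0.29 ± 0.14, adjusted p = 0.175). Psmb7, the trypsin-like subunit, read 143, 114 and 124 CPM against 148, 161 and 143 CPM (-0.25 ± 0.15, adjusted p = 0.255). The groups overlapped for Psmb5, while for Psmb6 and Psmb7 each STAT6-/- value was under each WT value by a small margin.

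The balance within each catalytic pair was compared as a ratio of FPKM within a library, which no scaling between libraries changes. The ratio of Psmb8 to Psmb5 was 2.93, 2.14 and 3.06 in STAT6-/- and 0.607, 0.769 and 0.528 in WT. Psmb8 thus made up 68.1% to 75.4% of the FPKM of the pair in STAT6-/- and 34.5% to 43.5% in WT. The ratio of Psmb9 to Psmb6 was 2.56, 1.66 and 1.58 against 0.26, 0.462 and 0.336, and that of Psmb10 to Psmb7 was 1.44, 1.58 and 1.33 against 0.849, 1.08 and 0.881. By the deposited FPKM the immunosubunit held the larger share in all 3 pairs of every STAT6-/- library. In WT it did so only in the Psmb10 pair of replicate 2. Such shares depend on the transcript lengths behind the FPKM. The deposited values imply 784.69 bases for Psmb9 and 1020.5 for Psmb6, against 1352 and 798 in GENCODE. The GENCODE lengths would lower the share of Psmb9 in every library, and to under that of Psmb6 in STAT6-/- replicates 2 and 3. The larger share of Psmb9 is therefore a statement about the deposited FPKM. The ratios were 4.27-fold, 5.5-fold and 1.55-fold higher in STAT6-/-, with 3 libraries above 3 in each pair. The two-sided exact permutation p was 0.1 for each pair (n = 3 per group) and also 0.1 when adjusted over the 3 pairs, which is the smallest this design allows. With each library's trends on GC content and length taken off, the first 2 ratios were 3.85-fold and 5.99-fold higher, while that of Psmb10 to Psmb7 was 1.14-fold higher with overlapping groups (exact permutation p = 0.4). Over the 6 catalytic genes the immunosubunits held 64.4% to 69.0% of the FPKM in STAT6-/- and 37.2% to 44.4% in WT.

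**Figure D3:**
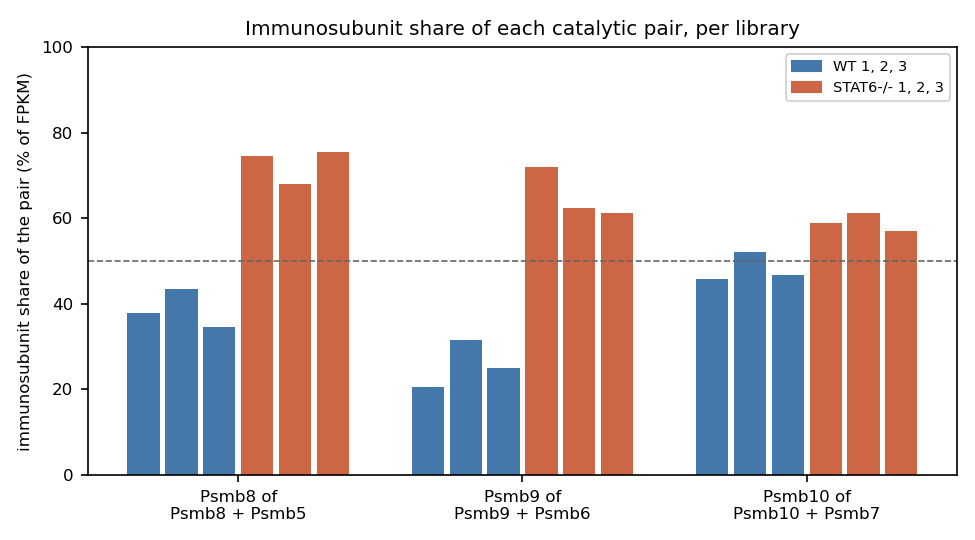
Share of the immunosubunit in the summed FPKM of each catalytic pair (percent), 1 bar per library; the dashed line marks an equal share. The STAT6-/- bars of Psmb8 stand at 68.1% to 75.4% and the WT bars at 34.5% to 43.5%, and the gap is narrowest for Psmb10.

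The genes of the PA28 activator, a cap that opens the core without ATP, differed by smaller folds than Psmb8 and Psmb9, a contrast between genes that was not tested. Psme1 (PA28 alpha) stood at 281, 248 and 265 CPM in STAT6-/- and at 183, 187 and 171 CPM in WT, and it was 1.47-fold higher (log2 fold change 0.55 ± 0.15, edgeR adjusted p = 0.0372). Psme2 (PA28 beta) stood at 302, 315 and 289 CPM against 233, 240 and 172 CPM. The groups did not overlap for either gene. The difference in Psme2 did not pass (0.49 ± 0.18, edgeR adjusted p = 0.0914), although it passed with DESeq2 and in a fit freed of trends in GC content and transcript length, at an adjusted p of 0.0348 in the latter. The call of Psme1 was lost without STAT6-/- replicate 1 and without any 1 of the WT replicates, at an adjusted p of up to 0.147. Psme2 had the highest mean FPKM of all members (293). Reads of Psme2 can be shared with its near copy Psme2b, which held 24 to 122 expected counts per library.

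The alpha subunits of the 20S core gave 0 calls among the 7 tested with edgeR. Their log2 fold changes ran from -0.42 (Psma5) to 0.18 (Psma6), with a median of -0.24, and 2 had an unadjusted p under 0.05. These were Psma2 (119, 113 and 108 CPM in STAT6-/-, 151, 159 and 142 CPM in WT) and Psma5 (121, 102 and 104 CPM against 139, 158 and 142 CPM), whose groups did not overlap and which passed with DESeq2 on the lower side (16% of all genes were lower and 18.1% higher there). Limma-voom called neither. Psma7, the most abundant alpha subunit by FPKM, stood at 186, 166 and 150 CPM against 175, 183 and 153 CPM (log2 fold change -0.03 ± 0.16, positive under 9 of the 19 alternatives). Psma8, the testis form of the alpha ring, was listed at 2 to 7 counts per library, failed the filter and is the member not tested.

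The 8 constitutive beta genes likewise gave 0 calls with edgeR and with limma-voom, 1 had an unadjusted p under 0.05 and DESeq2 called that one. It was Psmb1, at 151, 174 and 148 CPM in STAT6-/- and 214, 242 and 203 CPM in WT (log2 fold change -0.48 ± 0.16, edgeR adjusted p = 0.066), whose groups did not overlap. Psmb3, the most abundant by FPKM, stood at 158, 157 and 125 CPM against 167, 169 and 147 CPM (-0.13 ± 0.16). Psmb4 was the one widely expressed beta gene with a positive difference (214, 198 and 194 CPM against 174, 168 and 153 CPM, 0.29 ± 0.14, adjusted p = 0.171). Psmb11, the thymus-specific catalytic subunit, was low in all libraries, at 2.24, 1.83 and 2.01 CPM against 1.12, 0.74 and 1.475 CPM. Its groups did not overlap, and the difference did not pass (0.86 ± 0.37, edgeR adjusted p = 0.129). With GC and length trends removed, the median log2 fold change of the 8 genes went from -0.146 to 0.15. In that fit 7 of the 8 were positive, and Psmb1 stood at 0.0662. The summed FPKM of the constitutive members was 3714, 2958 and 2892 in STAT6-/- and 3163, 3094 and 3045 in WT, so these sums overlapped. The FPKM of all genes summed to 480568 to 546287 in STAT6-/- and 596118 to 621373 in WT. As a share of that total the constitutive members held 0.721%, 0.541% and 0.602% against 0.528%, 0.498% and 0.511%, without overlap. The summed FPKM of the 5 inducible members was 1604, 1211 and 1194 against 686, 744 and 613. The inducible subunits therefore made up 29.1% to 30.2% of the FPKM of all members in STAT6-/- and 16.8% to 19.4% in WT.

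The 19S regulator showed calls in both directions. Among the 6 ATPases, which unfold the substrate, Psmc4 and Psmc5 rose and Psmc6 fell. Psmc4 stood at 114, 88.9 and 107 CPM in STAT6-/- and at 75.2, 71.3 and 62.2 CPM in WT (log2 fold change 0.57 ± 0.15, edgeR adjusted p = 0.0398). Psmc5 stood at 109, 89.4 and 103 CPM against 74.4, 74.2 and 67.4 CPM (0.48 ± 0.14, adjusted p = 0.0459). Psmc6 stood at 103, 84.8 and 97.0 CPM against 122, 144 and 140 CPM (-0.51 ± 0.15, adjusted p = 0.048). The 3 genes encode neighbours in 1 ring, yet each had groups that did not overlap, and in opposite directions. The value of Psmc6 turned to 0.165 with GC and length trends removed, its transcript having the lowest GC content of the tested members (37.0%). The call of Psmc6 was also lost without any 1 library, with RLE factors, with library size only, with no filter and on FPKM. Those of Psmc4 and Psmc5 were lost without STAT6-/- replicate 1, without any 1 WT replicate and with upper quartile factors, and that of Psmc4 with the trends removed. Psmc1, the most abundant ATPase by FPKM, stood at 131, 104 and 123 CPM against 134, 145 and 145 CPM (-0.25 ± 0.15, adjusted p = 0.257).

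Of the 11 non-ATPase subunits, 2 rose, 0 fell and 9 had a positive log2 fold change, with a median of 0.27. Psmd3, a scaffold subunit of the 19S lid, stood at 172, 121 and 153 CPM in STAT6-/- and at 73.3, 61.5 and 49.1 CPM in WT. All STAT6-/- libraries lay above all WT libraries, and Psmd3 was 2.42-fold higher (1.28 ± 0.21, edgeR adjusted p = 0.0134). Psmd2, the scaffold of the 19S base, stood at 280, 216 and 258 CPM against 156, 135 and 132 CPM, without overlap. It was 1.78-fold higher (0.83 ± 0.17, edgeR adjusted p = 0.0198). Psmd1, the other large scaffold of the base, stood at 160, 117 and 146 CPM against 109, 89.2 and 86.2 CPM and did not pass (0.57 ± 0.18, edgeR adjusted p = 0.0568). STAT6-/- replicate 2 was the lowest STAT6-/- library for Psmd1, Psmd2 and Psmd3. Without it 9 constitutive members were higher (17.9% of all genes were), among them Psmd1, Psmd11 and Psmd14, while Psmd2 and Psmd3 lost their calls without WT replicate 2 or 3, and Psmd2 also without WT replicate 1. The ubiquitin receptor Psmd4 read 98.4, 91.5 and 107 CPM against 87.7, 82.9 and 84.8 CPM (0.22 ± 0.13, adjusted p = 0.247). Psmd14, the deubiquitinase of the lid, read 77.2, 51.6 and 64.3 CPM against 54.8, 46.7 and 46.6 CPM (0.38 ± 0.18, adjusted p = 0.152), and its groups overlapped. Psmd8, the most abundant of this role by FPKM, read 135, 151 and 135 CPM against 164, 153 and 139 CPM (-0.12 ± 0.14).

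Psmd5, Psmd9 and Psmd10 help to assemble the 19S base. None of the 3 passed edgeR's test, 2 had an unadjusted p under 0.05 and DESeq2 called Psmd10 on the lower side. Psmd5, the most abundant, read 50.3, 46.5 and 43.1 CPM in STAT6-/- and 59.2, 70.9 and 58.1 CPM in WT (log2 fold change -0.43 ± 0.14, edgeR adjusted p = 0.0658). Psmd10 (gankyrin), an X-linked gene, read 26.8, 27.5 and 22.3 CPM against 31.5, 39.5 and 35.9 CPM (-0.48 ± 0.16, adjusted p = 0.0678). Psmd9 read 23.6, 25.1 and 22.9 CPM against 17.6, 19.7 and 18.95 CPM (0.35 ± 0.15, adjusted p = 0.128). With GC and length trends removed, the log2 fold changes were -0.25 for Psmd5, -0.017 for Psmd10 and 0.082 for Psmd9, and none passed. The groups of all 3 chaperones were separate, 2 with STAT6-/- below and 1 with it above. Over all genes tested, 46.5% had groups that did not overlap.

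Of the other activators and the inhibitor, Psme3 rose. Psme3 (PA28 gamma), the nuclear activator that is not part of the inducible pair, stood at 115, 88.1 and 84.95 CPM in STAT6-/- and at 61.9, 53.7 and 46.1 CPM in WT. The groups did not overlap and the level was 1.78-fold higher (log2 fold change 0.84 ± 0.18, edgeR adjusted p = 0.0231), with the call lost without WT replicate 2 or 3. Psmf1 (PI31), an inhibitor of the isolated core, read 39.3, 31.0 and 36.4 CPM against 25.3, 26.4 and 23.3 CPM, which missed the threshold narrowly (0.51 ± 0.15, edgeR adjusted p = 0.051). Psme4 (PA200) read 123, 115 and 127 CPM against 113, 122 and 104 CPM, with overlap (0.11 ± 0.14, adjusted p = 0.575).

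The 4 chaperones of the 20S core stood at low levels, with mean FPKM values of 12.4 to 17.7. Psmg2, which pairs with Psmg1 to build the alpha ring, fell from 22.1, 24.8 and 23.6 CPM in WT to 13.3, 12.7 and 7.46 CPM in STAT6-/-. The 2.11-fold drop (-1.08 ± 0.25 as a log2 fold change) passed edgeR at an adjusted p of 0.0268, with no overlap. The value was -0.63 with GC and length trends removed, where the call was lost (adjusted p = 0.0747), as it was without any 1 WT replicate. Its partner Psmg1 read 14.5, 14.3 and 7.09 CPM in STAT6-/- and 15.02, 14.5 and 12.99 CPM in WT (-0.25 ± 0.30, adjusted p = 0.566). For Psmg1, Psmg2 and Psmg3 STAT6-/- replicate 3 was the lowest of all 6 libraries. Psmg4, the most abundant by FPKM, read 12.7, 10.5 and 8.15 CPM against 8.04, 9.31 and 7.71 CPM (0.32 ± 0.24, adjusted p = 0.355). Of the genes reported apart, Psme2b, Psme3ip1 and Psmc3ip did not pass (edgeR adjusted p = 0.0627, 0.125 and 0.463), so counting them would not alter the number of calls.

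Genes that work with the proteasome were taken from a list of 23, of which 22 were tested. In all 5 rose, Adrm1, Rad23b, Ddi2 and Vcp among them (22.7% of the list, against 11.4% of all genes), and Sem1 and Ecpas fell (9.09%, against 11.5%). Rad23b, Ddi2 and Vcp passed narrowly (edgeR adjusted p = 0.0481, 0.042 and 0.0402) and lost their calls with GC and length trends removed (0.053, 0.0511 and 0.0677). Adrm1, the ubiquitin receptor docked on Psmd1, stood at 121, 99.2 and 132 CPM in STAT6-/- and at 62.4, 60.7 and 51.7 CPM in WT, 2.01-fold higher (log2 fold change 1.01 ± 0.16, edgeR adjusted p = 0.0132). Its groups did not overlap. Ubb, a polyubiquitin gene and the most abundant of the list, read 1124, 1207 and 1226 CPM against 1595, 1812 and 1738 CPM, lower in each STAT6-/- library without passing (-0.53 ± 0.19, edgeR adjusted p = 0.0785). Sem1, the smallest 19S subunit, whose symbol lies outside the Psm series, read 113, 121 and 97.6 CPM against 171, 188 and 159 CPM (-0.64 ± 0.15, adjusted p = 0.029). With GC and length trends removed its log2 fold change turned to 0.53, from a transcript of 37.3% GC. Ecpas, which tethers the 26S proteasome to other structures, read 114, 147 and 118 CPM against 185, 213 and 198 CPM (-0.65 ± 0.16, adjusted p = 0.0321), a call lost with the trends removed. The call of Adrm1 was lost without WT replicate 2 or 3, those of Sem1 and Ecpas without STAT6-/- replicate 1 or any 1 WT replicate, and that of Ecpas without STAT6-/- replicate 3. Nfe2l1, the transcription factor that restores proteasome genes when degradation is impaired, read 200, 204 and 221 CPM against 151, 165 and 144 CPM and did not pass (0.44 ± 0.15, edgeR adjusted p = 0.0659).

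The genes of the peptide route and of interferon signalling were compared because the immunosubunits feed the same pathway. Of 10 genes tested from a list of 11, 5 were higher (50%, against 11.4% of all genes, with Tap1, Tap2, Tapbp and Nlrc5 among them) and 0 were lower (against 11.5%), with 1 at an unadjusted p under 0.05 on the lower side and 0 lower in DESeq2. Tap1, which shares the promoter region of Psmb9, stood at 420, 207 and 381 CPM in STAT6-/- and at 18.6, 52.4 and 21.6 CPM in WT (log2 fold change 3.44 ± 0.49, edgeR adjusted p = 0.0112). Tap2, its partner in the peptide transporter, stood at 227, 224 and 235 CPM against 48.9, 67.1 and 43.7 CPM (2.10 ± 0.20, adjusted p = 0.00732). For Tap1, as for Psmb8, Psmb9 and Psmb10, WT replicate 2 was the highest WT library. Nlrc5, the transactivator of MHC class I genes, stood at 88.1, 30.1 and 99.2 CPM against 2.37, 4.53 and 1.99 CPM (4.61 ± 0.56, adjusted p = 0.00965). Tapbp (tapasin) stood at 514, 503 and 585 CPM against 248, 295 and 215 CPM (1.08 ± 0.19, adjusted p = 0.0149). These 4 genes had groups that did not overlap, and all 4 calls were lost without WT replicate 3, those of Nlrc5 and Tapbp also without WT replicate 2 and that of Tapbp without WT replicate 1. B2m, the light chain of MHC class I and the most abundant of the list, read 1751, 905 and 1653 CPM against 656, 1092 and 812 CPM, with overlap (0.75 ± 0.32, edgeR adjusted p = 0.129). Its log2 fold change was 1.58 with GC and length trends removed (edgeR adjusted p = 0.038) and 1.03 without STAT6-/- replicate 2 (0.0247). Ifng, the gene of interferon-gamma, failed the filter, with 2.89, 0 and 0.90 CPM in STAT6-/- and 0 CPM in each WT library.

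Immunosubunits are known to be abundant in leukocytes, and leukocyte markers differed between libraries. All 18 markers had a positive log2 fold change, and 3 of them passed (Cd3e, Itgax and Flt3), where 11.4% of all genes were higher. The summed level of the 18 was 1501, 249.7 and 863.9 CPM in STAT6-/- and 320, 498.6 and 505.6 CPM in WT. Ptprc, the pan-leukocyte marker CD45, read 183, 19.8 and 95.5 CPM against 19.3, 20.2 and 20.1 CPM. In STAT6-/- replicate 2, 5 of the 18 markers lay above all 3 WT libraries (Cd3e, Cd4, Cd79a, Itgax and Flt3), 5 lay within the WT range, Ptprc among them, and 8 lay below it. Its summed level, of which Lyz2 made up 142.7 CPM, was below that of each WT library, and so was its sum without Lyz2 (107 CPM, against 139.9 to 144.7 CPM in WT). In that library Psmb8 read 315 CPM and Psmb9 118 CPM. In STAT6-/- replicates 1 and 3, 18 and 15 markers lay above all WT libraries. STAT6-/- replicate 1 had the highest leukocyte sum as well as the highest Psmb8 and Psmb9. The part of leukocytes in the difference of these genes was not tested.

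**Figure D4:**
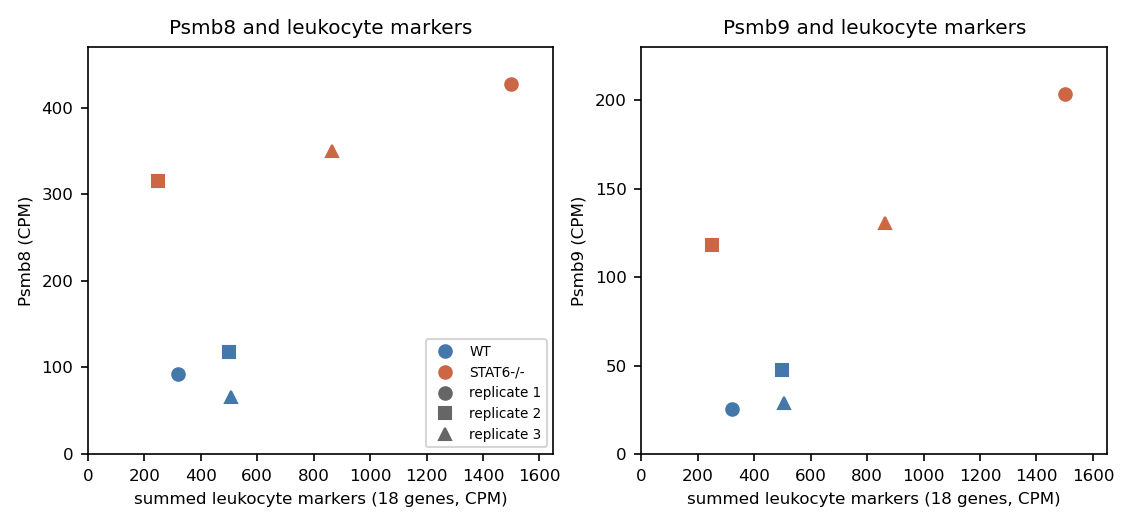
Psmb8 (left) and Psmb9 (right), in CPM, against the summed CPM of 18 leukocyte marker genes, 1 point per library. Leukocyte sums of the STAT6-/- libraries span 249.7 to 1501 CPM and those of WT 320 to 505.6 CPM.

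The log2 fold changes of the constitutive genes varied with the makeup of their transcripts. Across the 42 tested, Pearson's r of the log2 fold change with GC content was 0.414 and with log2 length 0.46, as a description across genes measured in the same 6 libraries, against 0.197 and 0.0896 across all genes with a value. The 23 constitutive genes under 50% GC had a median log2 fold change of -0.20 and the 19 at or over 50% GC one of 0.22. When each library was freed of the trends that all genes showed on both properties, these medians were 0.28 and 0.19. In that fit 10 members were higher and 0 were lower (7.18% and 7.41% of all genes), and Psma6, Psmd14 and Psme2 joined the higher calls. A positive log2 fold change was seen there in 33 of the 42 constitutive genes (median 0.242). Over all 15066 genes tested it was seen in 7477 (median -0.00556). Psmb8 and Psmb9 stood at 1.98 and 2.37 there, and Psmd3 at 0.96. The count of positive constitutive genes thus went from 21 to 33 with this step, whereas the 5 inducible subunits were positive in both fits.

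**Figure D5:**
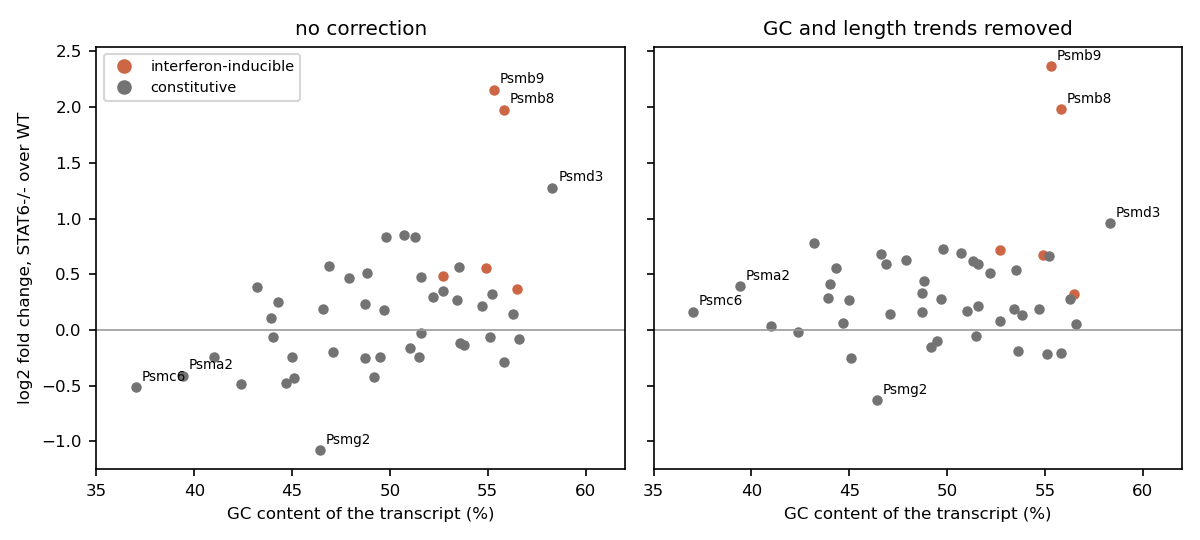
Log2 fold change of STAT6-/- over WT against the GC content of the transcript (percent) for the 47 tested proteasome genes, before (left) and after (right) removal of trends on GC content and length. Psmc6 moves from -0.51 to 0.17 while Psmb8 stays at 1.98.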

How the data were processed

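RNA of 3 STAT6-/- and 3 WT colon samples was sequenced by the authors. Per the file headers, the authors deposited an expected count and an FPKM value per RefSeq transcript. Per the submitters' processing notes, the tools were Bowtie2 2.2.5 and RSEM 1.2.12 and the build was mm10; the strand setting is not given in the sources used here. Of 28238 transcripts, 27986 were named by RefSeq and 149 by GENCODE, and 103 (0.167% of counts) stayed unnamed and out of the tests. Expected counts were summed per gene, rounded and tested with edgeR 4.0.16 in R 4.3.3 (TMM factors, filterByExpr, robust quasi-likelihood test, Benjamini-Hochberg adjustment over all 15066 genes), and CPM values are TMM-scaled. Pair ratios used deposited FPKM and an exact permutation test. Alternatives were other scalings and filters, DESeq2 1.42.0, limma 3.58.1 (voom, and log2 of FPKM plus 1 or 0.1), a replicate block and each library left out. Removal of trends on GC content and length (splines of 5 degrees of freedom, 98.6% of genes with a value), for genes and pair ratios, was added after seeing the data, as was counting the 3 genes reported apart. Scripts were tested on simulated data. Totals of 17122315 to 19555450 counts per library make counting error small for all members but Psma8 and Psmb11. The members and lists were chosen with earlier results of these data known. Named were the inducible and replaced subunits, the members past the threshold in each role, the most abundant of each role and any untested one, and up to 4 called genes of each other list with its most abundant. Further genes were named after their values were seen. Individual values of some listed genes are not reported here, while the counts over the lists include them.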

Additional observations from a re-analysis of the deposited data

How the results depend on the processing

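Over the 31 tested genes named by the rule and 19 alternatives, 487 of 589 values kept direction and side of the threshold. A further 76 lost the call, 5 gained it and 21, in 6 genes, changed sign. Genes named after their values were seen are outside these counts. Among them, Psma2 and Psmb1 changed sign with GC and length trends removed (log2 fold changes of 0.39 and 0.0662). The lower calls moved most easily. With RLE factors, library size only, no filter or FPKM on either pseudocount, 1 member, a constitutive one, was lower. Over all genes 7.23% to 11.2% were lower in these fits. Lower members numbered 4 with upper quartile factors (12.9% of all genes), 6 with DESeq2 (16%) and 0 with GC and length trends removed (7.41%). With upper quartile factors 3 constitutive members were higher (10.1% of all genes). Partner genes gave 8 higher calls with DESeq2 (18.1% of all genes) and 0 lower with the trends removed (7.41%). The replicate numbers are not known to pair the libraries (correlations of deviations 0.023, 0.0445 and 0.134), and not every library correlated best with its own number. With the replicate block 5 members were higher and 1 lower, 3 constitutive members higher and 1 lower, and 3 partner genes higher. Over all genes 8.09% were higher and 9.59% lower with the block. Psme1, Psmc4, Psmc5 and Psmc6 were no longer called there. With the block and the trends removed together 5 members, 3 constitutive members and 1 partner gene were higher and 0 of each lower. In that fit 5% of all genes were higher and 5.32% lower.

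Leaving out each library in turn gave 0 to 12 members higher and 0 to 2 lower, 0 to 3 inducible and 0 to 9 constitutive members higher, 0 to 2 constitutive members lower, 0 to 5 partner genes higher and 0 to 2 lower, and 0 to 8 peptide route genes higher. Over all genes these fits called 0.0779% to 17.9% higher and 0.039% to 15.9% lower. The log2 ratio differences of the pairs were 1.97 to 2.26, 2.24 to 2.67 and 0.566 to 0.74, and 1.95, 2.58 and 0.19 with the trends removed. With the trends removed, and with the block added, log2 fold changes were 0.0492 and 0.0488 for Psmb5, 0.166 and 0.149 for Psmb7, 0.165 and 0.149 for Psmc6, 0.213 and 0.209 for Psma7, 0.134 and 0.131 for Psmb3, and 0.532 and 0.523 for Sem1. Psma7 was 0.0393 with library size only, 0.00761 with no filter, 0.0277 and 0.0278 on FPKM, and -0.106 to 0.0926 with a library left out. Likewise Psmb5 ran from -0.18 to 0.0721 and Psmb3 from -0.203 to 0.0147, both highest without STAT6-/- replicate 3. Apart from these constructions, the cause was not tested.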
